A study of Mus musculus with 12 samples.

Results

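The genes described here carry the symbols of proteins of the mitochondrial ribosome, the particle that translates the mRNAs of the mitochondrial genome. They were chosen by symbol alone: every gene of the deposited count table whose symbol is Mrps or Mrpl followed by a number and at most 1 letter. The rule found 78 rows and 77 distinct genes among 30154 in the table. Of the 77, 29 carry small-subunit symbols (Mrps) and 48 large-subunit symbols (Mrpl). A symbol alone does not show that the product belongs to the particle or to that subunit. All 77 passed the filter on low counts, which left 15890 genes tested.

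Mitochondrial ribosomes make a few hydrophobic subunits of the respiratory chain and of ATP synthase. Their RNA comes from the mitochondrial genome, while their proteins are encoded in the nucleus, translated on cytosolic ribosomes and imported. Resting muscle stem cells hold little cytoplasm and few mitochondria, and activation after injury is accompanied by growth and more mitochondrial respiration. Sestrins are stress-induced proteins that restrain the mTOR complex, a driver of ribosome production in the cytosol and of mitochondrial gene expression.

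The libraries came from muscle stem cells sorted by flow cytometry from the hind limb muscles of C57BL/6J mice aged 2 to 3 months. Wild-type (WT) mice and mice labelled Sestrin1,2 Knockout (KO) were sampled before injury (day 0) and on days 7 and 21 after it, with 2 libraries in each of the 6 groups, 12 in all. The labels do not say how many animals were pooled in a library or how the muscle was injured, nor whether the 2 libraries of a group came from separate mice, so p-values measure the spread between libraries, which may be technical. The knockout is labelled as a property of the mouse, with no cell type restriction named.

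Libraries held 28396862 to 38950614 estimated counts, of which 45145 to 119474 belonged to the mitoribosomal genes. Sesn2, a targeted gene, was measured at 75.1 and 84.3 CPM (counts scaled by library depth with TMM factors) in WT and at 5.47 and 7.03 CPM in KO at day 0, and at 44.9 and 47.4 CPM in WT and 2.36 and 1.92 CPM in KO at day 7. At day 21 it went against the label of a library of each genotype, with 8.92 and 82.1 CPM in the libraries labelled WT and 9.86 and 108 CPM in those labelled KO. Genotype at day 21 is therefore given by label, with and without WT replicate 1 and KO replicate 2. All 8 stem cell markers on the list were detected, but Pax7, which defines the cell type, stayed between 3.14 and 19.2 TPM (counts scaled by transcript length and depth). Markers of other cells were present as well. The summed TPM of 6 muscle fibre markers went from 60.3 to 91.5 at day 0 to 2038 to 4386 at day 7, and that of 5 skin markers was 195 and 203 in WT and 30.8 and 32.2 in KO at day 0, where Krt5, Krt14 and Krt15 were at 0 in both KO libraries. In bulk RNA, fewer cells of a type and less RNA per cell cannot be told apart.

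As a group, the mitoribosomal genes were highest at day 7 and lowest at day 21. Their TPM summed to 4486 and 4618 in WT and 4258 and 4031 in KO at day 0. At day 7 the sums were 6238 and 6143 in WT and 5986 and 5976 in KO. The day 21 sums were 3206 and 4294 under the WT label and 3327 and 3231 under the KO label. All 4 libraries of day 7 were above all 8 others, and KO was below WT at days 0 and 7 without overlap. WT replicate 2 of day 21 lay above the other 3 libraries of its day and between the WT and KO values of day 0.

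**Figure D1:**
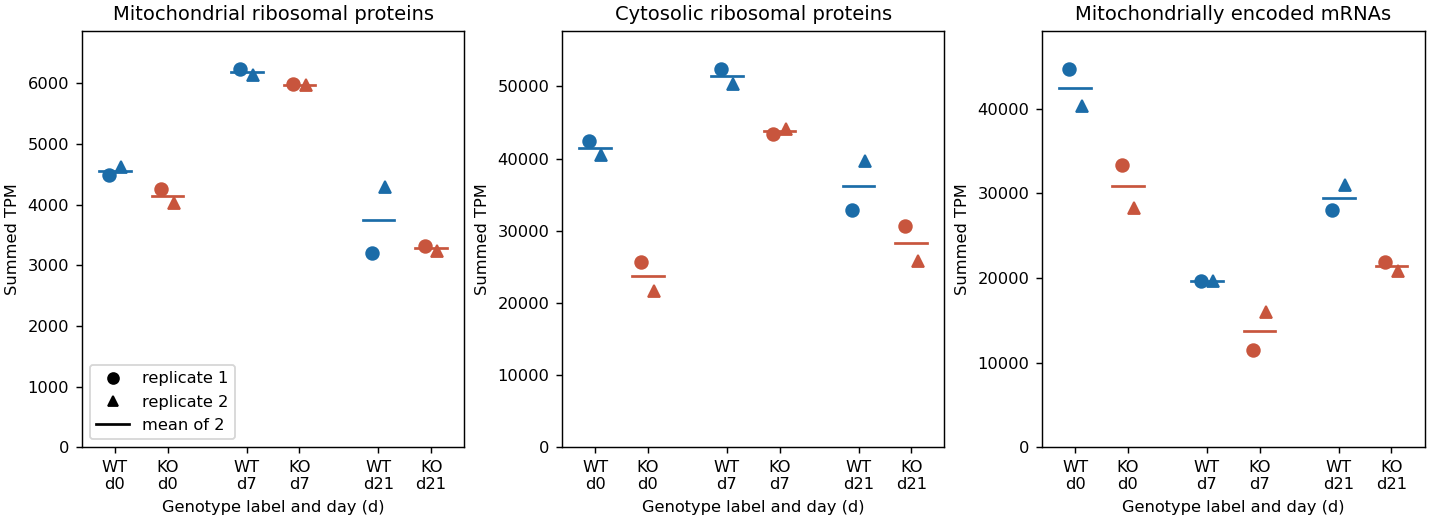
Summed TPM in each of the 12 libraries (y axis, from 0) for the 77 mitoribosomal genes, the cytosolic ribosomal protein genes and the mitochondrially encoded mRNAs, by genotype label and day (x axis). Circles and triangles are replicates 1 and 2 and lines are means of 2. The mitoribosomal sum peaks at day 7, where the mitochondrially encoded sum is lowest, and the cytosolic sum has its lowest values in KO at day 0.

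Gene by gene, 52 of 77 (67.5%) had all 4 libraries of day 7 above all 4 of day 0, against 25.2% of all genes tested. For day 7 above day 21 this held for 71 of 77 (92.2%), against 24.7% of all genes. For day 0 above day 21 it held for 31 of 77 (40.3%), against 15% of all genes, and for 0 of the 78 cytosolic ribosomal protein genes tested. Of these 78, 62 had day 7 above day 21 and 18 had day 7 above day 0. The complete order, day 7 above day 0 above day 21 with no overlap, was met by 19 of 77 genes (24.7%) and by 1.45% of all genes.

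**Figure D2:**
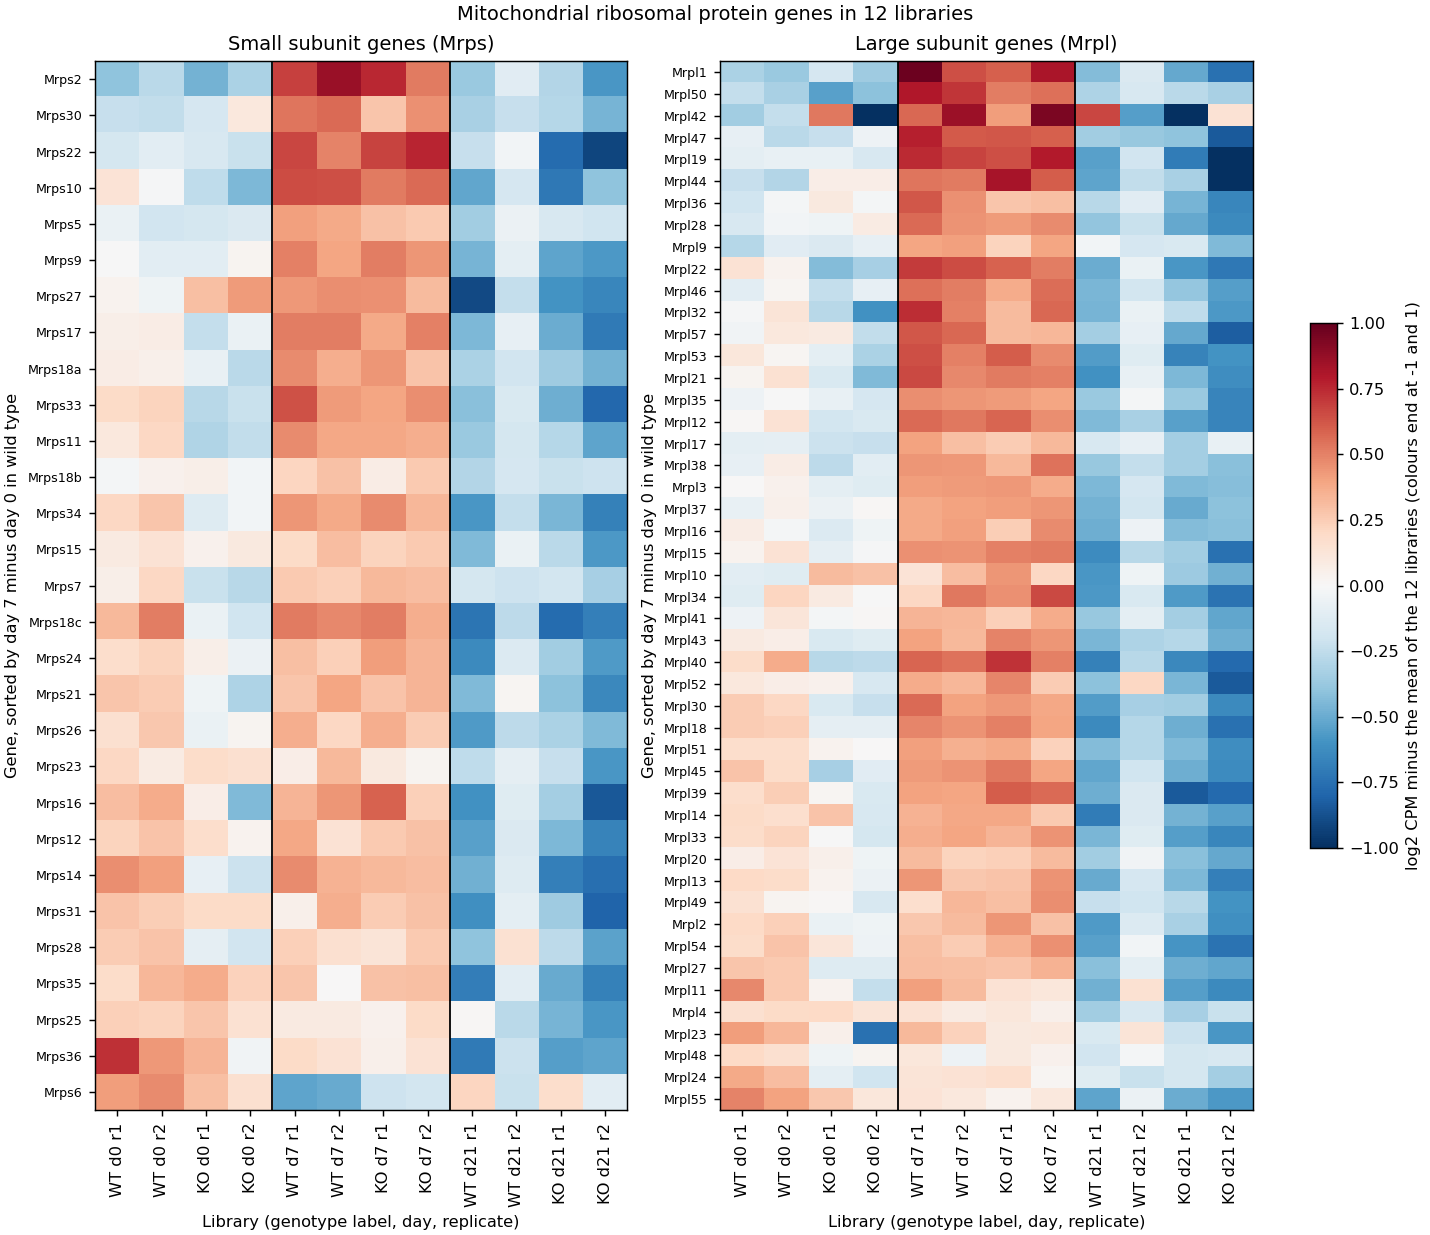
Each row is a mitoribosomal gene, with Mrps symbols on the left and Mrpl symbols on the right, sorted by its change from day 0 to day 7 in WT. Columns are the 12 libraries by day, genotype label and replicate. Colour is log2 CPM minus the gene's mean over the 12 libraries. The 4 columns of day 7 are red for most genes and those of day 21 blue, paler in WT replicate 2, and Mrps6, the last row on the left, runs the other way.

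Levels between genes were compared as TPM, which is scaled by transcript length. Mean TPM over the 12 libraries ranged from 3.55 to 263. Mrpl33, a large-subunit protein with a bacterial relative, was highest at 263 TPM, followed by Mrps21 at 221 TPM and Mrpl17 at 154 TPM. Mrpl33 ran from 171 TPM in KO-labelled replicate 1 of day 21 to 362 TPM in WT replicate 2 of day 7. The lowest were Mrps16 at 3.55 TPM, Mrpl11 at 3.75 TPM and Mrpl57 at 4.86 TPM. Short transcripts, close gene copies and overlapping genes make such estimates uncertain, and 22 members shared exonic bases with a protein-coding gene of the table in GENCODE M21, in a protocol not stated to keep strand. Mrps23 had 2 rows with identical values and was counted once, with the value of 1 row.

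From day 0 to day 7 in WT, 28 of 77 mitoribosomal genes rose and 1 fell (edgeR, adjusted p under 0.05), a share of 36.4% rising against 25.8% of all genes tested. The median log2 fold change was 0.28, against 0.06 over all genes, and 64 of 77 values were above 0 (against 52.9% of all genes); 21.2% of all genes fell. In KO, 47 of 77 rose (61.0%, against 24.7% of all genes) and 1 fell, with a median of 0.46 against 0.03 over all genes and 70 of 77 above 0 (against 51.3% of all genes, of which 22.2% were called lower). With counts adjusted for effective transcript length, 41 rose and 1 fell in WT and 25 rose and 3 fell in KO, so the order of the genotypes in the number that rose was reversed; 24.8% and 21.6% of all genes rose then. The KO libraries of day 0 enter both this comparison and that of genotypes at day 0, so the 2 are not independent.

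Mrpl50, a large-subunit protein of mitochondria with no bacterial relative (chr4:49512596-49521093, minus strand, GRCm38), rose in both genotypes. It was at 30.1 and 28.5 CPM in WT and 24.5 and 26.8 CPM in KO at day 0, then at 62.1 and 58.4 CPM in WT and 50.9 and 52.1 CPM in KO at day 7, and at 28.4 to 31.8 CPM at day 21. The 4 values of day 7 were above all others. The log2 fold change was 1.04 ± 0.10 (SE, n = 2 against 2; edgeR adjusted p = 2.66e-05) in WT and 1.01 ± 0.10 (edgeR adjusted p = 2.74e-05) in KO.

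Mrps2, related to a bacterial small-subunit protein (chr2:28468066-28471178, plus strand), went from 10.7 and 11.7 CPM to 22.7 and 25.7 CPM in WT, and from 10.2 and 11.4 CPM to 23.9 and 20.2 CPM in KO. Its log2 fold changes were 1.11 ± 0.16 in WT (edgeR adjusted p = 0.000353) and 1.03 ± 0.16 in KO (edgeR adjusted p = 0.000509). Mrpl1, a protein of the stalk next to the exit site for transfer RNA (chr5:96209493-96266727, plus strand), went from 11.1 and 10.7 CPM to 27.2 and 21.5 CPM in WT. Its log2 fold change was 1.16 ± 0.17 (edgeR adjusted p = 0.000385). For both genes the libraries of day 7 stood clear of those of day 0.

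Mrps30 and Mrpl28 completed the 5 members with the smallest adjusted p among those that rose in WT. Mrps30 has a small-subunit symbol but sits in the large subunit in structures of the particle. It was at 29.5 and 29.1 CPM at day 0 and 50.0 and 51.1 CPM at day 7 in WT, a log2 fold change of 0.79 ± 0.12 (edgeR adjusted p = 0.00052), and its change in KO was 0.39 ± 0.12 (edgeR adjusted p = 0.023). Mrpl28 went from 55.5 and 61.0 CPM to 92.1 and 85.1 CPM, a log2 fold change of 0.61 ± 0.10 (edgeR adjusted p = 0.000884).

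In KO, the members with the smallest adjusted p after Mrpl50 were Mrpl12, Mrps22, Mrps2 and Mrps7. Mrpl12, the protein of the flexible stalk that recruits translation factors (chr11:120484613-120489065, plus strand), went from 52.0 and 53.2 CPM to 88.2 and 81.3 CPM, a log2 fold change of 0.69 ± 0.10 (edgeR adjusted p = 0.000226). In WT it went from 59.5 and 65.3 CPM to 87.1 and 85.1 CPM, so the genotypes met at day 7. Mrps22, a small-subunit protein of mitochondria alone (chr9:98588730-98601660, minus strand), went from 13.5 and 12.9 CPM to 24.2 and 25.6 CPM in KO, a log2 fold change of 0.91 ± 0.13 (edgeR adjusted p = 0.000313).

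**Figure D3:**
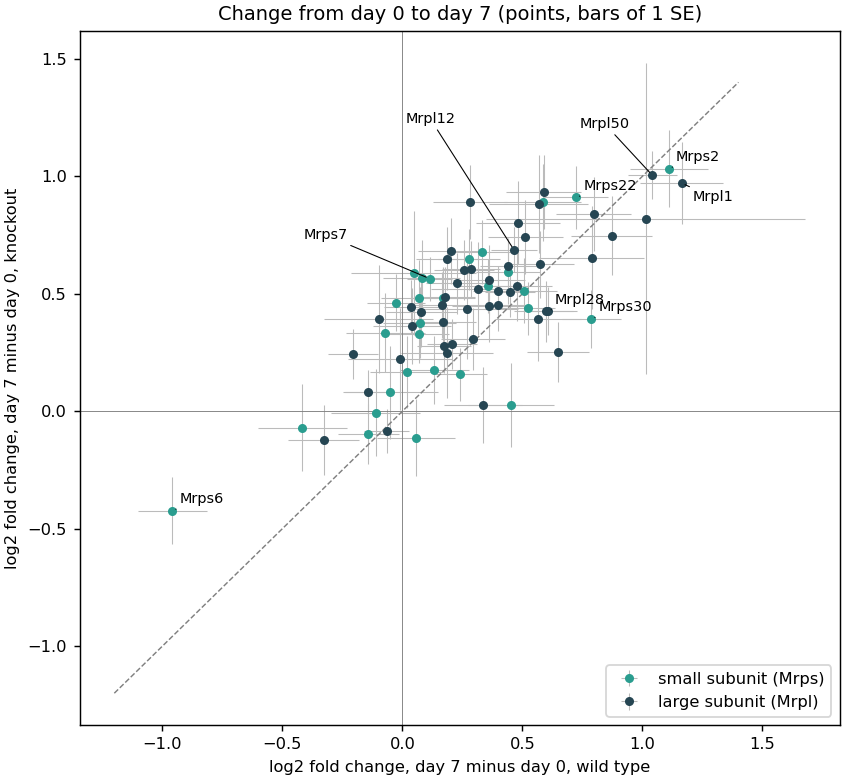
Log2 fold change from day 0 to day 7 in WT (x axis) and KO (y axis) for the 77 mitoribosomal genes, with bars of 1 SE and a dashed line where both are equal. Most points lie above 0 on both axes, and Mrps6 is at -0.96 and -0.42.

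Mrps6 was the member that fell. It encodes a small-subunit protein with a bacterial relative (chr16:92058270-92112227, plus strand). It was at 73.7 and 76.3 CPM in WT and 67.8 and 61.3 CPM in KO at day 0, at 38.3 and 38.9 CPM in WT and 47.8 and 48.6 CPM in KO at day 7, and at 47.2 to 64.0 CPM at day 21. All 4 values of day 0 were above all 4 of day 7. The log2 fold change was -0.96 ± 0.15 in WT (edgeR adjusted p = 0.000423) and -0.42 ± 0.14 in KO (edgeR adjusted p = 0.0339). The KO call was lost on leaving out any single library of KO at days 0 or 7 or of WT at day 7, with edgeR adjusted p up to 0.172, and in limma on log2(TPM + 1), with an adjusted p of 0.0541. From day 7 to day 21 Mrps6 was also the only member of the 77 called higher, at 0.38 ± 0.10 (edgeR adjusted p = 0.00901). It shares 159 of its 1533 exonic bases with Slc5a3, a sugar alcohol transporter gene on the same strand. Slc5a3 changed by -0.35 ± 0.30 in WT at day 7 (edgeR adjusted p = 0.364) and rose by 1.70 ± 0.22 from day 7 to day 21 (edgeR adjusted p = 0.00013). How much of the Mrps6 values came from shared bases was not tested.

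By symbol, 8 of 29 Mrps genes and 20 of 48 Mrpl genes rose in WT, with medians of 0.11 and 0.33. In KO 15 of 29 and 32 of 48 rose, with medians of 0.44 and 0.50. The symbol does not always give the subunit, as for Mrps30. The shares that rose were 27.6% of Mrps and 41.7% of Mrpl genes in WT, against 25.8% of all genes, so the Mrps share in WT was near the background. In KO they were 51.7% and 66.7%, against 24.7% of all genes. The ratio of summed Mrpl to summed Mrps TPM was 1.66 to 1.70 in the 4 libraries of day 7, above all 8 others, which lay between 1.49 and 1.59. Of the 47 members related to bacterial ribosomal proteins, 19 rose in WT and 31 in KO, and of the 30 without such a relative, 9 rose in WT and 16 in KO. These were 40.4% and 30% in WT and 66.0% and 53.3% in KO, for those with and without a relative. The 3 genes related to bacterial protein S18 did not share a pattern of calls. Mrps18a rose in WT by 0.36 ± 0.11 (edgeR adjusted p = 0.026) and in KO by 0.53 ± 0.11 (edgeR adjusted p = 0.00328). Mrps18b changed by 0.24 ± 0.11 and 0.16 ± 0.11 (edgeR adjusted p = 0.0983 and 0.276). Mrps18c changed by 0.08 ± 0.16 in WT (edgeR adjusted p = 0.715) and rose by 0.57 ± 0.16 in KO (edgeR adjusted p = 0.0145). The differences between these genes were not tested.

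Markers of several cell types moved with day 7. Muscle fibre markers were called higher in 6 of 6 genes in both genotypes. Fibro-adipogenic markers were called higher in 3 of 6 and lower in 1 in each genotype, with summed TPM of 5455 to 7798 at day 0 and 11649 to 13722 at day 7. Immune markers were called higher in 4 of 5 tested genes and lower in 1 in each genotype, with median log2 fold changes of 3.84 in WT and 4.44 in KO, while their summed TPM, most of it Lyz2, went from 2031 to 3513 at day 0 to 339 to 502 at day 7. Schwann cell markers were called lower in 3 of 3, with summed TPM of 524 to 752 at day 0 and 89.4 to 141 at day 7. Stem cell markers were called higher in 3 of 8 and lower in 1 in WT, and higher in 5 and lower in 1 in KO, with medians of 0.30 and 1.01. Red blood cell markers were called lower in 4 of 4 in WT and 0 in KO, skin markers lower in 5 of 5 in WT and 1 in KO, and endothelial markers lower in 0 of 5 in WT and 3 in KO. Pericyte and smooth muscle markers were called higher in 1 of 4 and lower in 2 in each genotype. The part of these in the rise of the mitoribosomal genes was not tested.

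Promoters are shown for 3 genes of the day 7 results and for Mrpl45, which was among the genes called at day 0, because they hold motifs of factors known to act on nuclear genes for mitochondrial proteins. RefSeq promoters of build GRCm38.p6 matched 68 of 77 members by symbol. The 120 bases before the RefSeq start are given 5′ to 3′ on the gene's strand, with motif matches in capitals. Mrpl12 (chr11:120484517-120484636, plus strand) holds an NRF1 motif, Mrpl50 (chr4:49521084-49521203, minus strand) a ZNF143 motif, Mrps22 (chr9:98601680-98601799, minus strand) a ZNF143 motif and then an ETS core, and Mrpl45 (chr11:97315596-97315715, plus strand) a pair of NRF1 motifs.
Mrpl12: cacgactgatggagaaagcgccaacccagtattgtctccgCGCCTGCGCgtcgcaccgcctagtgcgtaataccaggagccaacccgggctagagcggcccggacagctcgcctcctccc
Mrpl50: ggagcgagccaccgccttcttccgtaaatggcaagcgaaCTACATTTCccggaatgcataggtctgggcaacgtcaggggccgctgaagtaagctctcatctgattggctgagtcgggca
Mrps22: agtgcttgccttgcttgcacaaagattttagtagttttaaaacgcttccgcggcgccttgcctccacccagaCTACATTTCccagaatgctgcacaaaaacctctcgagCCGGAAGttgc
Mrpl45: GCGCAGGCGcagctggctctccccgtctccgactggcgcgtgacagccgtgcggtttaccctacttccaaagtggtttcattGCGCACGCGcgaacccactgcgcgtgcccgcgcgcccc

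The letters searched, on both strands of the 250 bases before the start, were GCGCANGCG for NRF1, CCGGAAG for the ETS core bound by GABPA, AAGATGGC for YY1, CTACANTTC for ZNF143 and CACGTG for the E-box. The ZNF143 letters were added after the Mrpl50 and Mrps22 sequences had been read, and the NRF1 and ZNF143 letters were shortened after a first search. NRF1 letters stood in 13 of 68 members (19.1%), against 11.1% of other tested genes and 5.16% of all promoters. ETS cores stood in 17 members (25%), against 13.7% and 6.91%. YY1 letters stood in 4 (5.88%, against 2.08% and 1.57%), ZNF143 letters in 3 (4.41%, against 2.66% and 1.49%) and E-boxes in 5 (7.35%, against 9.45% and 6.02%). The ZNF143 matches were in Mrpl34 and in Mrpl50 and Mrps22, which had been read before the letters were added. The ZNF143 share therefore cannot be judged against the other promoters. Among 58 cytosolic ribosomal protein genes with a promoter, 3 held NRF1 letters (5.17%) and 18 held an ETS core (31.0%). At least 1 of the first 4 motifs stood in 32 of 68 members, and the share of other genes with any of these was not counted. The 3 overlaps between matches were NRF1 letters read on both strands at the same place. A match describes letters and shows no binding.

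At day 0, most mitoribosomal genes had slightly lower values in KO than in WT, which did not hold with counts adjusted for effective length. The cytosolic ribosomal protein genes were much lower. Of the 77, 10 were called lower and 0 higher (13% lower, against 12.6% of all genes tested lower and 14.8% higher), so the share called was near the background. The median log2 fold change was -0.18, 63 of 77 values were below 0 (against 48.9% of all genes), and 50 of 77 had both KO libraries below both WT libraries, against 37.1% of all genes. Of 78 cytosolic genes tested, 77 were called lower, with a median of -0.97 and values from -2.27 to -0.36. Rpl8, which was not called, was at -0.40 (edgeR adjusted p = 0.0628). Among those with the smallest adjusted p were Rpsa, at -1.57 ± 0.16 (edgeR adjusted p = 0.000452), and Rps19, at -1.33 ± 0.14 (edgeR adjusted p = 0.000471). The ratio of summed cytosolic to summed mitoribosomal TPM was 9.46 and 8.77 in WT and 6.04 and 5.37 in KO at day 0, and 7.25 to 10.3 in the 8 later libraries, all above both KO libraries of day 0.

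Among the 5 members with the smallest adjusted p, Mrps14, a small-subunit protein with a bacterial relative (chr1:160195215-160202170, plus strand), was at 70.8 and 68.2 CPM in WT and 48.6 and 44.3 CPM in KO. Its log2 fold change was -0.58 ± 0.12 (edgeR adjusted p = 0.00662). At day 7 the genotypes lay close, at 71.2 and 65.4 CPM in WT and 64.3 and 63.7 CPM in KO. Mrpl24 (chr3:87919506-87923672, plus strand) was at 51.1 and 48.8 CPM in WT and 36.8 and 34.2 CPM in KO, a log2 fold change of -0.49 ± 0.11 (edgeR adjusted p = 0.0077). Mrps7, a small-subunit protein that helps organise its head (chr11:115603925-115608036, plus strand), was at 59.6 and 66.3 CPM in WT and 49.0 and 47.4 CPM in KO, a log2 fold change of -0.39 ± 0.09 (edgeR adjusted p = 0.0136).

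Mrpl40, a mitochondrial addition to the large subunit, was at 20.2 and 23.1 CPM in WT and 14.7 and 14.8 CPM in KO, a log2 fold change of -0.55 ± 0.16 (edgeR adjusted p = 0.0256). Mrpl27, whose bacterial relative reaches into the site of peptide bond formation, was at 43.9 and 43.3 CPM in WT and at 33.0 CPM in both KO libraries, a log2 fold change of -0.40 ± 0.11 (edgeR adjusted p = 0.0259). The WT and KO libraries of these 5 genes did not overlap. Over 25 alternatives the call was lost in 5 for Mrps14, 8 for Mrpl24, 9 for Mrps7, 10 for Mrpl40 and 10 for Mrpl27. With counts adjusted for effective length none of the 5 was called, and Mrpl27 was at -0.05 (edgeR adjusted p = 0.759). The value closest to 0 over the alternatives was -0.13 for Mrps7, -0.21 for Mrpl24 and -0.27 for both Mrps14 and Mrpl40. The other 5 called lower were Mrps18c, Mrps33, Mrps11, Mrpl30 and Mrpl45, with log2 fold changes from -0.55 to -0.42. Mrpl24, Mrpl27 and Mrps7 share exonic bases with genes on the opposite strand.

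Transcript length moved with this comparison. Over all tested genes, the median log2 fold change at day 0 was -0.26 in the shortest and 0.31 in the longest of 5 equal bins of effective length. The shortest bin held 55 of 77 mitoribosomal genes, with a median of -0.20 there, and 75 of 78 cytosolic genes, with a median of -0.98. With counts adjusted for effective length, the mitoribosomal median was 0.09 and 4 members were called higher and 0 lower (against 13.6% of all genes higher and 9.01% lower, with a median of 0.07), while the cytosolic median was -0.62 and 62 genes were called lower. Without KO replicate 2 of day 0, 0 members were called by edgeR. limma on log2(TPM + 1) also called 0, and DESeq2 called 13 lower (14.9% of all genes). Stem cell markers were lower in KO at day 0 in 6 of 8 genes, with summed TPM of 848 to 888 in WT and 569 to 603 in KO, and the summed TPM of 4 red blood cell markers was 3111 and 3117 in WT and 779 and 740 in KO. Fibro-adipogenic markers were called lower in 2 of 6, muscle fibre markers in 2 of 6 and skin markers in 4 of 5, pericyte and smooth muscle markers higher in 2 of 4, endothelial in 1 of 5 and Schwann in 1 of 3, and 0 of 5 immune markers were called by edgeR. The part of these in the result was not tested.

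**Figure D4:**
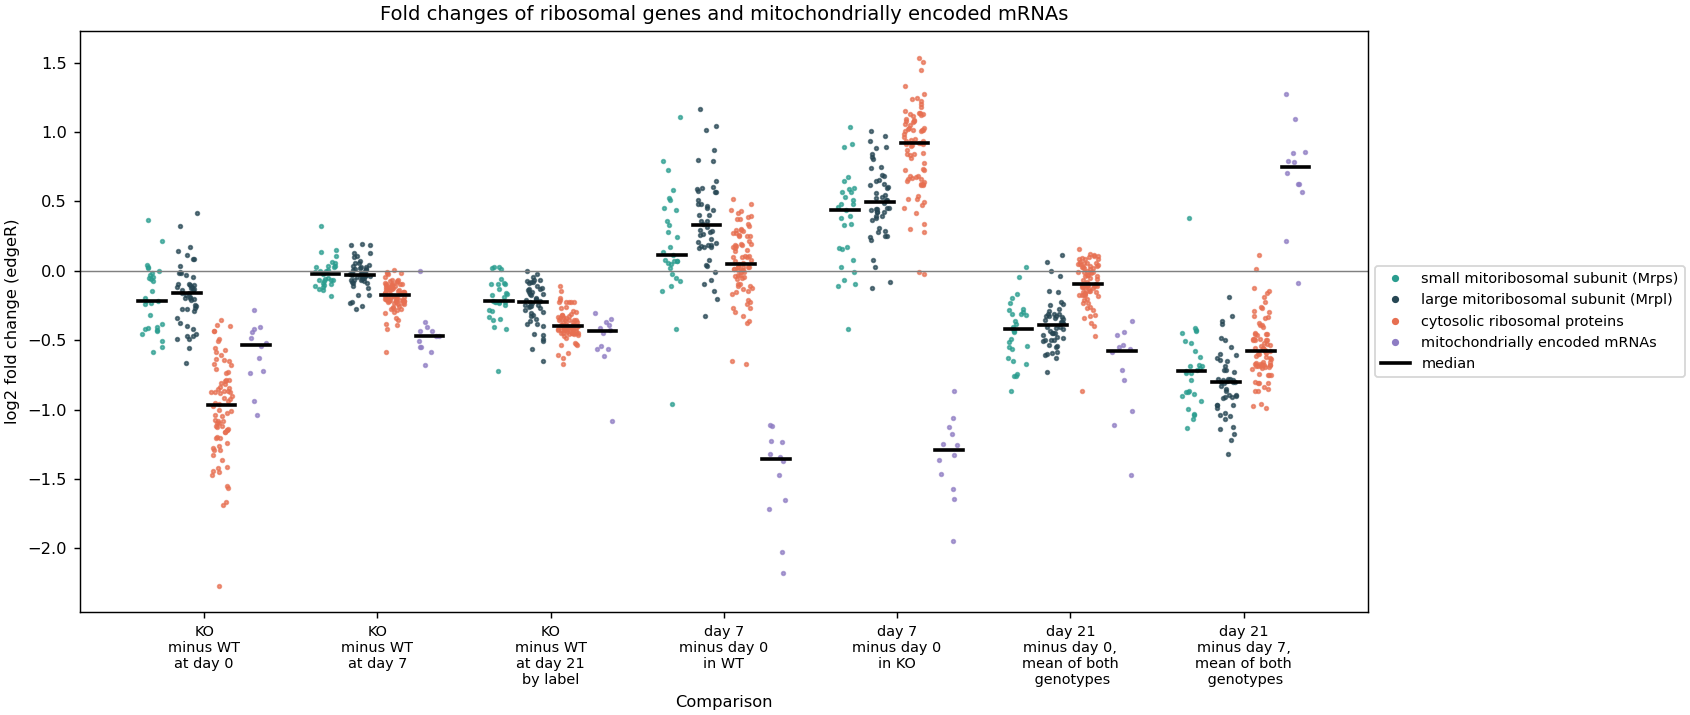
Log2 fold change of single genes (y axis) in 7 comparisons (x axis), with black lines at the medians. Shown are mitoribosomal genes with small-subunit (Mrps) and large-subunit (Mrpl) symbols, cytosolic ribosomal protein genes and mitochondrially encoded mRNAs. At day 0 the cytosolic genes centre on -0.97 and the mitoribosomal genes on -0.18, and the mitochondrially encoded mRNAs run opposite to the mitoribosomal genes from day 0 to 7 and from day 7 to 21.

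At day 7, 0 of 77 members were called between genotypes by edgeR, against 1.76% of all genes. The median was -0.02, 1 member had an unadjusted p under 0.05, and DESeq2 called 0 (against 5.54% of the 14349 genes to which it gave an adjusted p). The cytosolic genes had a median of -0.17 with 0 of 78 called by edgeR and 5 at an unadjusted p under 0.05. Still, 77 of 78 were below 0 (against 7907 of 15890 genes tested). Both KO libraries were below both WT libraries for 66 of 78 (against 3674 of 15890). In the test of whether the change from day 0 to day 7 differed by genotype, 60 of 77 members were above 0 (against 50.5% of all genes) with a median of 0.19, and 1 was called, against 13.5% of all genes. The direction turned with counts adjusted for effective length, where the median was -0.15 (-0.07 over all genes), and for GC and length, where it was -0.03 (-0.05 over all genes). The 1 member called was Mrps7, at 68.7 and 67.5 CPM in WT and 71.7 and 70.9 CPM in KO at day 7. Its change was 0.11 ± 0.09 in WT and 0.56 ± 0.09 in KO, a difference of 0.45 ± 0.13 (edgeR adjusted p = 0.0483), and the call was lost on leaving out any single library of days 0 or 7, with adjusted p up to 0.207. The call was also lost with counts adjusted for effective length, and the difference was 0.11 with counts adjusted for GC and length (edgeR adjusted p = 0.656), and the call held in 8 of 25 alternatives. Of the cytosolic genes, 55 of 78 were called with a higher value of the change in KO than in WT, with a median difference of 0.79.

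From day 7 to day 21, averaged over both genotype labels, 74 of 77 members fell and 1 rose (96.1% falling; 28.4% of all genes fell and 28.4% rose), with a median log2 fold change of -0.79. Mrpl12 was at 37.2 to 47.2 CPM in the 4 libraries of day 21 and at 81.3 to 88.2 CPM at day 7, a change of -1.03 ± 0.07 (edgeR adjusted p = 1.39e-06). Mrpl50 fell by 0.91 ± 0.07 (edgeR adjusted p = 3.72e-06), and Mrpl28 fell by 0.92 ± 0.07 (edgeR adjusted p = 4e-06), to 39.9 to 53.3 CPM. Of the cytosolic genes, 71 of 78 fell as well, with a median of -0.58. Without the libraries of day 21 whose labels Sesn2 contradicts, the median of the members was -0.68, against -0.0085 over all genes. Between these days muscle fibre markers were called lower in 5 of 6 genes, with a median of -2.30, and immune markers lower in 4 of 5 and higher in 1. Red blood cell markers were called higher in 4 of 4, with a median of 1.71, Schwann cell markers in 3 of 3, and skin markers in 5 of 5, with a median of 3.83. Stem cell markers were called higher in 4 of 8 and lower in 3, fibro-adipogenic markers higher in 2 of 6 and lower in 3, endothelial markers higher in 2 of 5, and pericyte and smooth muscle markers higher in 2 of 4 and lower in 1. The part of these in the fall was not tested.

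Against day 0, 60 of 77 members were lower at day 21 (77.9%, against 20.8% of all genes), with a median of -0.41 and 74 of 77 values below 0 (against 48.6% of all genes). The cytosolic genes had a median of -0.09 with 5 of 78 lower. Mrps14 was at 30.5 to 46.8 CPM at day 21, a change of -0.65 ± 0.09 (edgeR adjusted p = 0.000185). Mrpl51 was at 42.3 to 47.8 CPM at day 0 and at 27.5 to 34.7 CPM at day 21, a change of -0.54 ± 0.07 (edgeR adjusted p = 0.000258). Mrpl55, which did not pass the test at day 7, was at 25.9 to 33.7 CPM at day 0 and at 16.1 to 22.9 CPM at day 21, a change of -0.73 ± 0.11 (edgeR adjusted p = 0.000357). For Mrpl51 and Mrpl55 the days did not overlap, and for Mrps14 the highest library of day 21 overlapped KO of day 0. Without the doubted libraries 41 members were lower (18.3% of all genes), and with counts adjusted for effective length 35 were lower and 1 higher (19.7% and 18.8% of all genes). Against day 0, stem cell markers were called higher at day 21 in 8 of 8 genes, muscle fibre markers in 6 of 6 and skin markers in 4 of 5, and Schwann cell markers lower in 3 of 3. Fibro-adipogenic markers were called higher in 4 of 6 and lower in 1, immune markers higher in 3 of 5 and lower in 1, endothelial markers higher in 1 of 5, pericyte and smooth muscle markers lower in 2 of 4, and 0 of 4 red blood cell markers were called by edgeR. Their part in the result was not tested.

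By genotype label at day 21, 73 of 77 members were below 0 in KO (against 50.3% of all genes), with a median of -0.22, and 0 were called by edgeR (0.0126% of all genes were). At an unadjusted p under 0.05 there were 17, and DESeq2 called 3, all lower (against 2.37% of the 11269 genes to which it gave an adjusted p). The value rested on WT replicate 2: the median was -0.05 without it and -0.36 without WT replicate 1. Without both doubted libraries, which leaves 1 library in each group that is assumed to vary like the others, 3 members were called lower, against 3.36% of all genes, and the median was -0.28. That share of the members was near the background. By label and with all 4 libraries, 78 of 78 cytosolic genes were below 0 in KO, with a median of -0.40 and 0 called by edgeR. At an unadjusted p under 0.05 (edgeR) there were 57 of them, against 2259 of 15890 genes tested.

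The mRNAs that these ribosomes translate moved the other way between day 0 and day 7 and between day 7 and day 21. All 12 mitochondrially encoded mRNAs tested fell from day 0 to day 7 in both genotypes (against 21.2% of all genes in WT and 22.2% in KO), with medians of -1.36 in WT and -1.29 in KO. From day 7 to day 21, 10 of 12 rose (against 28.4% of all genes), with a median of 0.75. mt-Nd2, a subunit of respiratory complex I, changed by -2.18 ± 0.17 in WT at day 7 (edgeR adjusted p = 7.69e-06) and by -1.95 ± 0.17 in KO (edgeR adjusted p = 1.13e-05). mt-Nd4, of the same complex, changed by -1.72 ± 0.13 in WT (edgeR adjusted p = 4.7e-06). Against day 0, though, 11 of 12 were lower at day 21 (against 20.8% of all genes), as most mitoribosomal genes were. At day 0, 7 of 12 were lower in KO (58.3%, against 12.6% of all genes), with a median of -0.53. The medians were similar at day 7, at -0.47, and at day 21 by label, at -0.44, with 0 of 12 called by edgeR. Below 0 were 11 of 12 at day 7 and 12 of 12 at day 21 (7907 and 7994 of 15890 genes tested). At an unadjusted p under 0.05 (edgeR) there were 11 and 10, against 2268 and 2259 of all genes. Summed TPM of these mRNAs was 40261 to 44677 in WT at day 0 and 19616 to 19639 in WT at day 7.

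Among 6 mitoribosomal proteins with other symbols, 1 rose in WT at day 7 (16.7%, against 25.8% of all genes) and 3 rose in KO (50%, against 24.7%), and all 6 fell from day 7 to day 21 (against 28.4%). Ptcd3, a small-subunit protein that binds RNA, rose by 1.35 ± 0.14 in WT (edgeR adjusted p = 3.78e-05) and 0.94 ± 0.14 in KO (edgeR adjusted p = 0.000318). Of 27 assembly factors, 6 rose and 1 fell in WT at day 7, and 5 rose and 4 fell in KO. The shares that rose, 22.2% and 18.5%, were below those of all genes. Trub2, which modifies mitochondrial RNA, rose by 1.16 ± 0.21 in WT (edgeR adjusted p = 0.00127), while Mpv17l2 fell by 1.09 ± 0.16 (edgeR adjusted p = 0.000369). At day 0, 4 assembly factors were higher in KO and 0 lower; the 14.8% higher equals the share of all genes. The RNA helicase Dhx30 differed by 1.39 ± 0.24 (edgeR adjusted p = 0.0034), and Mrm1, a methyltransferase for mitochondrial ribosomal RNA, by 0.75 ± 0.16 (edgeR adjusted p = 0.00678).

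Of 15 mitochondrial translation factors, 7 rose in each genotype at day 7, with 1 falling in WT, and 12 fell from day 7 to day 21. The 46.7% that rose stand against 25.8% of all genes in WT and 24.7% in KO, and the 80% that fell against 28.4%. The elongation factor Tufm rose by 0.76 ± 0.12 in WT (edgeR adjusted p = 0.000552) and 0.88 ± 0.12 in KO (edgeR adjusted p = 0.000201). Guf1, another elongation factor, rose by 1.05 ± 0.14 in WT (edgeR adjusted p = 0.000215) and 0.71 ± 0.14 in KO (edgeR adjusted p = 0.00223). Of 17 genes of mitochondrial biogenesis, 7 rose and 3 fell in WT at day 7, and 3 rose and 3 fell in KO. In WT 41.2% rose, and in KO 17.6% rose and 17.6% fell, the last 2 below the 24.7% and 22.2% of all genes. Ppargc1a, a coactivator of mitochondrial gene programmes, fell by 1.53 ± 0.17 in WT (edgeR adjusted p = 6.74e-05) and 1.46 ± 0.17 in KO (edgeR adjusted p = 7.28e-05). At day 0, 6 of these genes were higher in KO and 2 lower (35.3% and 11.8%, against 14.8% and 12.6% of all genes). The mitochondrial DNA polymerase Polg was higher by 0.64 ± 0.11 (edgeR adjusted p = 0.00288) and the mitochondrial RNA polymerase Polrmt by 0.73 ± 0.13 (edgeR adjusted p = 0.00384).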

How the data were processed

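RNA of sorted cells was made into SMART-Seq v4 libraries and sequenced as single reads of 76 bases, per the labels' protocols. The submitters' processing notes name kallisto 0.46.1 and the builds mm10 and GRCm38.p6. The deposited tables hold estimated counts, TPM and batch-corrected rlog (log2) values per gene from the authors. Estimated counts were rounded and fitted with edgeR 4.0.16 (R 4.3.3): filterByExpr, TMM scaling, 1 mean for each of 6 groups, quasi-likelihood test, Benjamini-Hochberg over all 15890 genes, threshold 0.05. CPM shown are TMM-scaled. Folds are those of the edgeR fit with its default prior count. limma 3.58.1 and DESeq2 1.42.0 gave alternatives, all tested on simulated data. Replicates differed by more than sampling noise in every group. Members and lists were chosen with earlier results of these data known. Members named are the 5 (days 0 and 7) or 3 (other comparisons) called each way with the smallest adjusted p, the 3 highest and 3 lowest in TPM, the Mrps18 genes and those moving against the majority; from other lists at most 3 per comparison. A cytosolic gene that this rule names is not reported here. Positions are from GENCODE M21, where 76 members were found.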

Additional observations from a re-analysis of the deposited data

Results flagged for a closer look

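At day 21, the library labelled WT replicate 2 stood apart from the other 3 in the summed TPM of all mitoribosomal genes, at 4294 against 3206 to 3327. It also stood apart in that of the Mrpl genes, at 2638 against 1946 to 1991. Its gap to the next library exceeded Dixon's critical value for 4 samples, which chance passes in about 1 of 20 groups; the 4 libraries carry 2 genotype labels. Mrps7 differed between genotypes in its change from day 0 to day 7, by 0.45 on the log2 scale (edgeR); the call held in 8 of 25 alternatives, and the difference was 0.11 with counts adjusted for GC and length. The same test called 55 cytosolic ribosomal protein genes, each with a higher value of the change in KO than in WT.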

How the results depend on the processing

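Counts are of members called, with the share of all genes called in the same setting in parentheses. At day 0, where 10 were called, limma on log2(TPM + 1), on log2(TPM + 0.1) and without a filter called 0, 0 and 0 (23.9%, 24.3%, 14.3%), an adjusted p under 0.01 left 2 (12.6%), a length offset gave 4 (22.6%), a GC and length offset 6 (24.2%), and a fit on days 0 and 7 alone 27 (38.9%). The median log2 change there turned to 0.0907 with the length offset and to 0.0043 with the GC and length offset, and that of the genotype difference in the day 7 response turned from 0.19 to -0.15 and -0.0346. The day 0 genotype difference of the mitoribosomal genes thus depends on how length is treated; the GC and length offset was chosen after seeing the data. Between genotypes at day 7, days 0 and 7 alone called 1 (7.46%); at day 21, DESeq2 called 3 (4.22%), limma on rlog values 2 (1.09%) and the fit without both doubted libraries 3 (7.29%). In WT from day 0 to 7 (29 called), limma called 53, 53 and 47 (51%, 50.8%, 33%), and a threshold of 0.01 left 15 (31.8%); in KO (48) the length offset gave 28 (46.1%). For the difference in response (1 called), DESeq2 and rlog gave 3 each (18.3%, 14.7%), days 0 and 7 alone 12 (24.8%), the GC and length offset 2 (9.58%), and no filter (9.13%), limma on TPM (9.68%, 9.46%, 5.65%) and a threshold of 0.01 (3%) gave 0. For day 21 against day 0 (60), limma gave 33, 33 and 26 (44.4%, 44.2%, 27.4%), the length offset 36 (38.5%) and 0.01 left 39 (30.8%). Leaving out each library in turn gave 0 to 16 at day 0, 0 to 0 at day 7, 0 to 5 at day 21, 16 to 36 in WT, 31 to 54 in KO, 0 to 5 for the difference, 44 to 64 for day 21 against day 0, 74 to 75 against day 7 and 60 to 78 for the cytosolic genes at day 0. At day 0 the counts were 3 and 0 without KO replicates 1 and 2 (15.3%, 10.1%), 2 and 2 without WT replicates 1 and 2 (10.9%, 12.3%), and 16 without either WT library of day 21 (31.3%, 31.4%). In WT 16, 17 and 16 were called without WT day 0 replicates 1 and 2 and WT day 7 replicate 1 (32%, 31.4%, 33.2%), and in KO 31 without KO day 0 replicate 2 (33.4%). With the replicate number as a block, the difference in response called 0 and Mrps7 lost its call, while no other count of calls moved by over 1.5 times; the libraries share only a number, since correlations of same-numbered libraries between groups ran from -0.143 to 0.070 over 15 pairs of groups. Of 625 fits of named genes, 556 kept direction and call, 69 lost the call and 0 reversed. Where no cause is given, the cause was not tested. With 2 libraries a group, small changes could go uncalled.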

Other observations

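Mrpl42, looked at after its values were seen, had libraries of a group far apart. It was at 3.74 and 0.994 CPM in KO at day 0, at 4.11 and 1.76 CPM under the WT label at day 21 and at 0.85 and 2.86 CPM under the KO label. It was not called by edgeR in any of the 8 comparisons.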
